A study of Mus musculus with 22 samples.

Results

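The promoters of long noncoding RNAs (lncRNAs) and other noncoding transcripts were followed as mouse embryonic stem cells (ESC) became neural progenitor cells (NPC). The members were the windows of 5000 bp centred on an annotated transcription start site whose transcript carries a RefSeq noncoding accession. Windows of microRNA and small nucleolar RNA genes, recognised by symbol, were left out. This gave 2805 of the 24467 windows in the table. The name long noncoding RNA holds for most but not all of them: RefSeq types 2082 (74.2%) as lncRNA or antisense RNA, 337 (12.0%) as pseudogenes, 239 (8.52%) as protein-coding genes with a noncoding transcript and 91 (3.24%) as small or structural RNAs, while 56 (2.00%) were not matched. The 2082 windows typed as lncRNA are called lncRNA windows from here on, and counts over all 2805 are given where they differ in kind.

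CUT&RUN uses a nuclease tethered to an antibody to cut out chromatin where that antibody sits, so that a bound protein or a histone mark is read by sequencing the released DNA. It was run for SUZ12, JARID2, MTF2, H3K27me3 and H3K4me3, with 2 libraries per antibody and cell type, and for IgG, the background control, with 1 library per cell type. All cells were of a C57BL/6 ESC line with the genotype label "untagged, Tir1" and the treatment label "untreated", and each condition started from the same number of cells. ESC were kept in serum-free N2B27 medium with LIF at 100 U/mL, CHIR99021 at 3 µM and PD0325901 at 1 µM. NPC were made by exposure to bFGF at 10 ng/mL for 72 h, then to SAG, which switches on Hedgehog signalling, at 500 nM for 48 h. The series states that the 2 libraries are biological replicates. Both cell types come from 1 line, so p-values measure the spread between these libraries. Drosophila DNA was added as a spike-in but did not enter these values, and a shift of an antibody shared by every window was therefore not measured. Cultures were measured in bulk, so fewer cells with a mark and less of the mark per cell cannot be told apart.

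Long noncoding RNAs are transcripts without a long reading frame, and many act where they are made: Xist coats the X chromosome it comes from, and others scaffold nuclear bodies. Their promoters carry the same histone marks as coding promoters. H3K4me3 lies at active and poised start sites, while H3K27me3 is written by Polycomb repressive complex 2 (PRC2), which holds developmental genes silent in stem cells. SUZ12 is a core subunit of PRC2, and JARID2 and MTF2 are accessory subunits that help bring it to chromatin, mostly at promoters rich in CG dinucleotides. Many lncRNAs of the developing brain start next to genes of transcription factors that PRC2 covers in ESC.

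Among the members, 7 promoters recur below, and their sequences show the range from CG-poor to CG-rich. They are the 250 bases before and 50 after the start in RefSeq, build GRCm38.p6, printed 5′ to 3′ on the strand of the gene, with every CG dinucleotide in capitals. The first lost H3K4me3, the next gained H3K27me3, the next pair lost H3K27me3, and the last 3 are neural. Platr10 is at chr3:75655682-75655981, minus strand; 2410017I17Rik at chr17:36144768-36145067, plus strand; 1700120G07Rik at chr7:135195953-135196252, minus strand; Gm8883 at chr1:71887862-71888161, plus strand. 2610307P16Rik is at chr13:28885373-28885672, Miat at chr5:112228899-112229198 and Six3os1 at chr17:85618347-85618646, all on the minus strand.
Platr10: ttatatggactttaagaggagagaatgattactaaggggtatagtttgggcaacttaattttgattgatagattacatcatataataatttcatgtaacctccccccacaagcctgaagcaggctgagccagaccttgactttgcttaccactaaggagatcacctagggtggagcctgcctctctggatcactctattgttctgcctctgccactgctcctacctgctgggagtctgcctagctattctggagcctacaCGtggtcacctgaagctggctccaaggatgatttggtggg
2410017I17Rik: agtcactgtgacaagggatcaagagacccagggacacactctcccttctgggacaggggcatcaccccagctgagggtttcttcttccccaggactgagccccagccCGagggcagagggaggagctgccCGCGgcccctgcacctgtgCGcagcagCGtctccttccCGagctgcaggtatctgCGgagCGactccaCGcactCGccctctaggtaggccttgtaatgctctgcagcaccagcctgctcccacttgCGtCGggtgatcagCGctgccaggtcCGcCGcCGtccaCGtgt
1700120G07Rik: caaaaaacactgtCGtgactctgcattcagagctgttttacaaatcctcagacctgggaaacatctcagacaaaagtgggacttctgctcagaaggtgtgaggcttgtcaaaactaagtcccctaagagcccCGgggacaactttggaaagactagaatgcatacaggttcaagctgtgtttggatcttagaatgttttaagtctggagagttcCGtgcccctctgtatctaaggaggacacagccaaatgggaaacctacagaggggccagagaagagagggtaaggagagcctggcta
Gm8883: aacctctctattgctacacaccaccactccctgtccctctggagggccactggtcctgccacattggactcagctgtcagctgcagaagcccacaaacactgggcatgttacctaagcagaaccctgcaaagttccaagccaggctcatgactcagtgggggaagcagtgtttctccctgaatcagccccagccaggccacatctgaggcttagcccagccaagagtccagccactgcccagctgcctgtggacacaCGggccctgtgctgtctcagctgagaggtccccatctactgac
2610307P16Rik: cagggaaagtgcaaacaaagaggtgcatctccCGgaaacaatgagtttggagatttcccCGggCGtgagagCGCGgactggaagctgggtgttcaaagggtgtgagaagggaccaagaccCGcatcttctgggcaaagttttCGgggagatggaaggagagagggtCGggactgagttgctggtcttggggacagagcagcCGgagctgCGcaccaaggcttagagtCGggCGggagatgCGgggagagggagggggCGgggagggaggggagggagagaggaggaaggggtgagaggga
Miat: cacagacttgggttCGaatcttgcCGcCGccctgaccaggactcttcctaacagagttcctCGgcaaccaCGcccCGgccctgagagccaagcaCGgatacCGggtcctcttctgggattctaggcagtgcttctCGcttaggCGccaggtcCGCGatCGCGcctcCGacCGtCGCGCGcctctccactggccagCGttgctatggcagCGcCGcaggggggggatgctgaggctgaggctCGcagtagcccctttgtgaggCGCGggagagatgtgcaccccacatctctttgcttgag
Six3os1: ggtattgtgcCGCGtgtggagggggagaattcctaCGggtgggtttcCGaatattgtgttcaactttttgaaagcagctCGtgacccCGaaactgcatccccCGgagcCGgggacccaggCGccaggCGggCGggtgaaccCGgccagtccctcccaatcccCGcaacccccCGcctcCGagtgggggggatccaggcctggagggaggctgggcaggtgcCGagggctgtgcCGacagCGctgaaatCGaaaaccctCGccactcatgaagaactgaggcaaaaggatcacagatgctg
The CG count was 1 in Platr10, 17 in 2410017I17Rik, 3 in 1700120G07Rik, 1 in Gm8883, 14 in 2610307P16Rik, 25 in Miat and 20 in Six3os1. The motif CG reads the same on both strands, and 95.2% of the 1658 lncRNA promoters with a sequence held at least 1 copy, against 95.1% of all promoters in the table. The number of copies differed more: the median was 5.5 for lncRNA promoters and 14 for coding ones, and 50.0% of lncRNA promoters held 5 or fewer against 31.2% of coding promoters.

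Library totals over all windows ran from 298458 counts for IgG in ESC to 8425292 for H3K4me3 in NPC. Thus 3 counts correspond to between 10.05 and 0.356 counts per 1000000 counts of the library (CPM). Such floors cover counting error only. The H3K4me3 libraries were the deepest by total, but not at the typical member. The median member window held 37 and 20 H3K4me3 counts in ESC and 15 and 22 in NPC. For H3K27me3 it held 24 and 17 in ESC and 23 and 21 in NPC. H3K4me3 at marker promoters followed the cell labels in most cases: it fell in NPC at 5 of 6 naive pluripotency genes (not at Esrrb) and rose at 5 of 6 neural progenitor genes (it fell at Pax3). Of 6 mesoderm and endoderm genes, T, Gata4 and Sox17 fell, Foxa2 rose, and Gata6 and Kdr had no call.

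Where a lncRNA starts set how much of its signal is its own. Of the 2082 lncRNA windows, 594 share reads with the window of a coding gene, 641 have their nearest coding start 5 to 50 kb away and 847 lie over 50 kb from any. CUT&RUN reads carry no strand, so the signal of a shared window cannot be assigned to either gene. Of the sharing windows, 364 start in divergent orientation to the coding gene, 286 of them within 1 kb. A subset of 1413 lncRNA windows overlaps no other window of the table, and the main counts of each antibody are given for this subset as well.

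H3K4me3 in ESC was above IgG at 434 of the 2065 lncRNA windows tested (21.0%), beside 36.0% of all windows. Above IgG means an adjusted p below 0.05 and a log2 fold of at least 1 over the IgG library of the same cell type, so all antibodies of a cell type share 1 control library. In NPC the count was 448 (21.7%), beside 38.9% of all windows. Divergent starts within 1 kb of a coding start carried the mark most often, at 182 of 284 (64.1%) in ESC and 204 (71.8%) in NPC. Among windows overlapping no other it was above IgG at 97 of 1398 (6.94%) in ESC and 77 (5.51%) in NPC, and at starts over 50 kb from a coding start at 43 of 836 (5.14%) and 40 (4.78%). Coding windows overlapping no other stood at 32.7% and 36.2%; the difference from lone lncRNA windows was not tested. With a log2 fold of at least 2 over IgG, the count over all 2805 members went from 612 to 315 in ESC and from 636 to 286 in NPC.

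H3K27me3 showed another pattern. In ESC it was above IgG at 532 lncRNA windows (25.8%), beside 22.5% of all windows, and at nearly the same share of lone windows, 336 of 1398 (24.0%), and of those over 50 kb from a coding start, 202 of 836 (24.2%). In NPC it was above IgG at 262 lncRNA windows (12.7%), beside 15.1% of all windows. The lone windows fell to 83 (5.94%) and the distant ones to 43 (5.14%), while the windows sharing reads with a coding gene went from 183 of 592 (30.9%) to 165 (27.9%). Coding windows overlapping no other went from 24.9% to 17.03%.

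**Figure D1:**
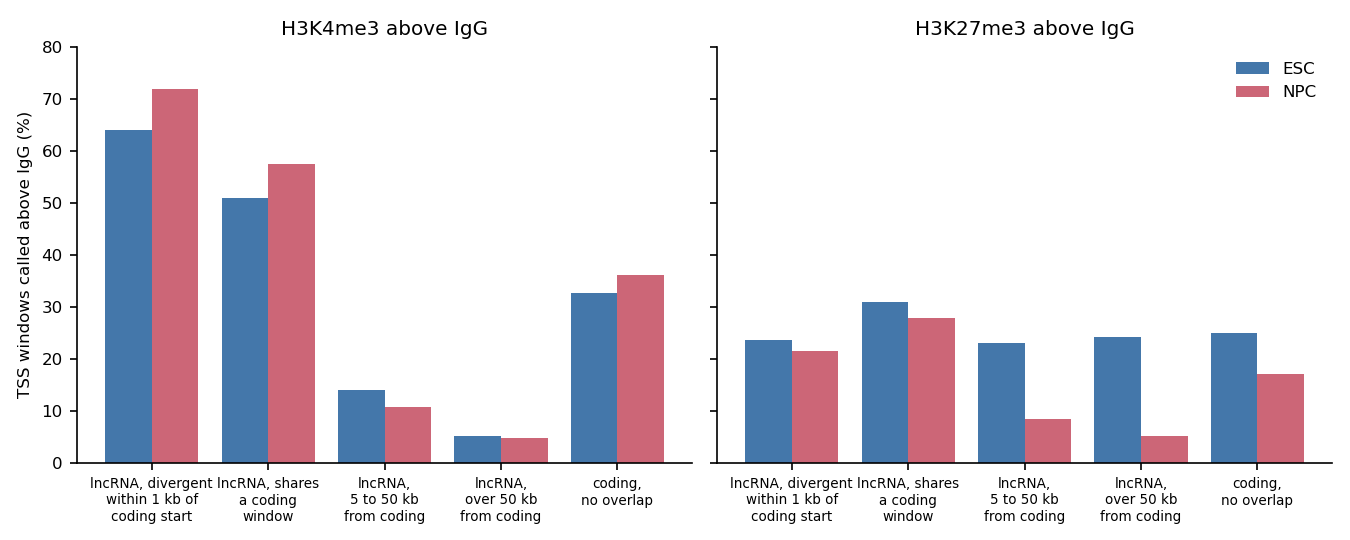
Bars give the percent of windows above IgG in ESC and in NPC (y axis, percent) for H3K4me3 and H3K27me3, in 4 classes of lncRNA windows by nearest coding start and in coding windows that overlap no other. H3K4me3 bars drop from 64.1% at divergent starts to 5.14% over 50 kb from a coding start in ESC, while the H3K27me3 bars of the distant class drop from 24.2% in ESC to 5.14% in NPC.

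PRC2 subunits were seen at fewer promoters. SUZ12 in ESC was above IgG at 122 lncRNA windows (5.91%), beside 5.67% of all windows, and MTF2 at 162 (7.85%), beside 9.1% of all windows. Most of these windows share reads with a coding gene: 93 of 592 (15.7%) for SUZ12 and 124 (20.9%) for MTF2, against 29 of 1398 lone windows (2.07%) for SUZ12 and 36 (2.58%) for MTF2. The count of SUZ12 windows over all members, 137, was 54 without ESC library 1 and 223 when IgG of both cell types served as the control, and that of MTF2, 188, was 74 without ESC library 1. No window of the table was above IgG for JARID2 in either cell type, or for SUZ12 or MTF2 in NPC, where 0.0% of all windows were called by edgeR. At an unadjusted p below 0.05, 60 lncRNA windows were higher than IgG for JARID2 in ESC and 16 in NPC, with 70 for SUZ12 and 87 for MTF2 in NPC, beside 565, 285, 628 and 812 of the 23836 windows tested in all. With scaling by library totals instead, 5 members were called for JARID2 in ESC, 30 for SUZ12 in NPC and 32 for MTF2 in NPC.

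Base composition went along with these shares. CG content was scored as the observed over expected number of CG dinucleotides in the 300 bases of the RefSeq promoter, and windows were put in 3 groups at the bounds that split all windows of the table equally, 0.31 and 0.76. The median was 0.32 for lncRNA promoters and 0.60 for coding ones, and 818 lncRNA promoters fell in the low group, 534 in the middle and 306 in the high group. H3K4me3 in ESC was above IgG at 3.34% of low, 21.0% of middle and 68.0% of high lncRNA promoters, beside 3.86%, 38.2% and 70.8% over all windows. In lone lncRNA windows the shares were 2.55%, 9.04% and 34.4%. SUZ12 in ESC was above IgG at 0.742%, 8.51% and 12.7%, beside 0.42%, 6.32% and 8.69% over all windows, so the order of the groups is that of the whole table. H3K27me3 in ESC did not follow that order, at 23.1%, 31.9% and 17.6%, and neither did all windows, at 21.0%, 28.3% and 15.2%. In NPC it was above IgG at 3.96% of the low group and at 19.5% and 19.6% of the other two, beside 4.83%, 21.99% and 15.3% over all windows. Of the 2019 lncRNA windows on chromosomes the promoter table covers, 82.1% had a sequence. Many CG-rich lncRNA promoters are shared with coding genes: only 64 of the 306 in the high group lay in lone windows.

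**Figure D2:**
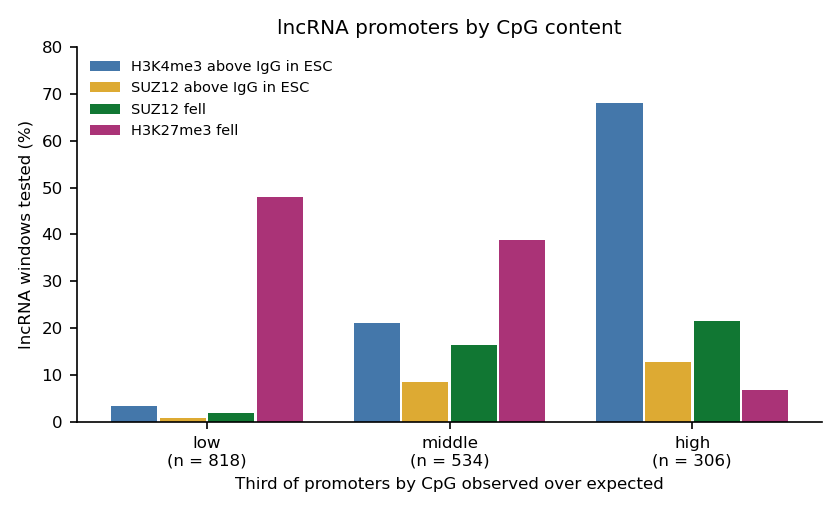
Bars give the percent of lncRNA windows (y axis, percent) in the low, middle and high CG groups (818, 534 and 306 windows) that were above IgG for H3K4me3 or SUZ12 in ESC, or that fell in SUZ12 or H3K27me3 from ESC to NPC. H3K4me3 and SUZ12 bars rise with CG content, and the bars for windows that fell in H3K27me3 drop from 48.1% to 6.83%.

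The change from ESC to NPC was then tested for each antibody over its 4 libraries. For H3K27me3, falls outnumbered rises at lncRNA windows. Over all windows tested, 23.5% fell and 22.9% rose, while of 1931 lncRNA windows 716 fell (37.1%) and 276 rose (14.3%), with a median log2 change of -0.36 against 0.12 over all windows. Among lone lncRNA windows 609 of 1321 fell (46.1%) and 104 rose (7.87%), and the median was -0.70. With the nearest coding start over 50 kb away, 411 of 796 fell (51.6%) and 40 rose (5.03%). Coding windows overlapping no other had 3629 of 14771 falling (24.6%) and 2882 rising (19.5%), and lncRNA windows that share reads with a coding gene leaned the other way, with 93 of 541 falling (17.2%) and 148 rising (27.4%). The difference between these classes was not tested.

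The falls in H3K27me3 were spread over the genome. On each of 20 chromosomes with at least 20 lone lncRNA windows tested, the median log2 change was negative, from -0.95 to -0.22, and the share that fell ran from 27.6% on chromosome 17 to 59.3% on chromosome 8. The share of falls also differed between the CG groups, at 48.1% of low, 38.8% of middle and 6.83% of high lncRNA promoters. Lone lncRNA windows fell at 49.7%, 48.0% and 17.2%, so there the low and middle groups were nearly level. Over all windows 43.1%, 21.4% and 6.31% fell. The median of lone lncRNA windows was negative under each scaling and filter tried, between -0.53 and -1.34, while the median of all windows ranged from -0.51 to 0.16. The count of falls over all members, 853, was 407 with DESeq2 and 438 without ESC library 1.

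1700120G07Rik shows what such a fall looks like. This lncRNA of unassigned function starts 72616 bp from Nps, in a window at chr7:135193502-135198502. Its H3K27me3 level was 125 and 153 CPM in the ESC libraries and 26.6 and 11.5 CPM in the NPC libraries, beside IgG at 63.7 and 29.9 CPM. Both ESC libraries were above both NPC libraries, and the log2 change was -2.77 ± 0.46 (SE, adjusted p = 1.22e-07). H3K27me3 was above IgG in ESC (log2 1.72) and not in NPC (log2 0.16). SUZ12 at the same window was 32.6 and 31.5 CPM in ESC and 38.6 and 37.9 CPM in NPC, below or near IgG in both cell types, and H3K4me3 stayed under the level needed for a test.

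Gm8883, at chr1:71885611-71890611 and 234877 bp from Fn1, had 74.6 and 78.8 CPM of H3K27me3 in ESC and 13.3 and 10.2 CPM in NPC. The 2 pairs of libraries did not overlap (log2 change -2.51 ± 0.34, adjusted p = 9.52e-11), and SUZ12 there was 24.5 and 27.8 CPM in ESC and 32.2 and 29.0 CPM in NPC, with no call. Its promoter, like that of 1700120G07Rik, is among the CG-poor sequences shown above. 4933407E24Rik, 88467 bp from Pou3f1, fell from 225 and 195 CPM to 41.0 and 26.1 CPM (log2 change -2.49 ± 0.60, adjusted p = 0.000261), a call that is lost without ESC library 1. Rmst, a lncRNA known from neurogenesis, fell in H3K27me3 from 113 and 100.4 CPM to 27.7 and 26.1 CPM while its H3K4me3 rose from 5.70 and 3.31 CPM to 29.4 and 29.7 CPM.

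Falls in H3K27me3 and in SUZ12 were seldom in the same window, among lncRNAs as in the whole table. Of 1793 lncRNA windows tested for both, 24 fell in both, which is 3.56% of the windows that fell in H3K27me3 and 11.3% of those that fell in SUZ12, beside 8.41% and 13.9% over all windows. Of the H3K27me3 falls, 636 (94.2%) had no SUZ12 call, and of the SUZ12 falls, 171 (80.7%) had no H3K27me3 call, beside 89.8% and 78.6% over all windows. Of the windows that fell, many had not been above IgG in ESC: 335 of the 716 lncRNA windows that fell in H3K27me3 (46.8%) were, and 13 (1.82%) were in NPC, beside 50.5% and 3.33% of all windows that fell.

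**Figure D3:**
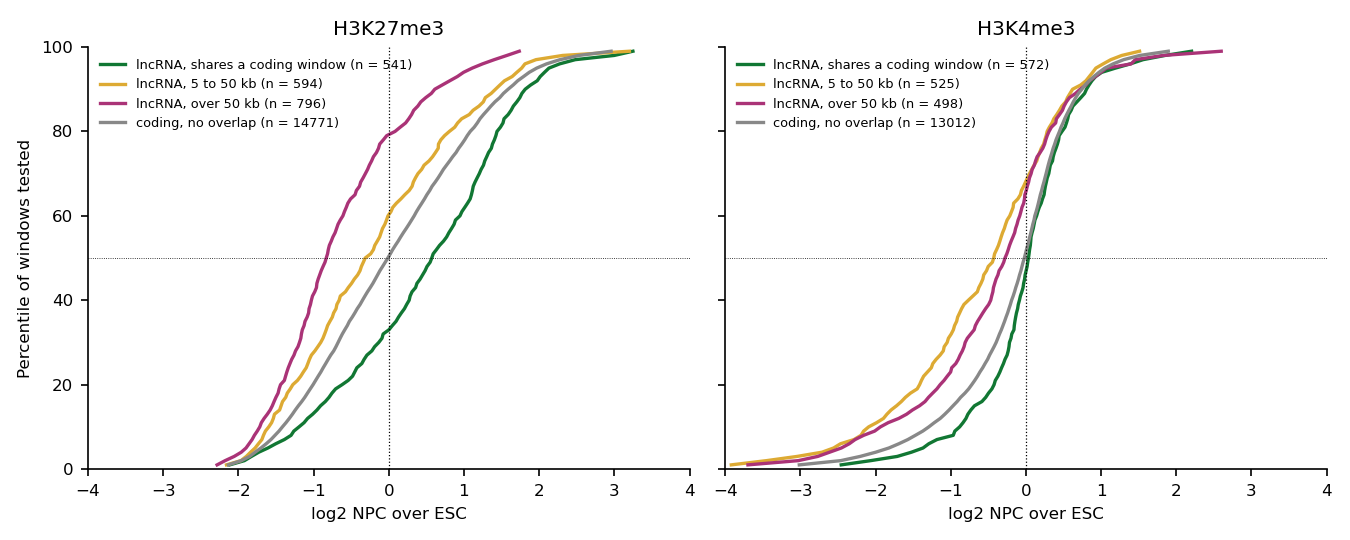
Curves give the percentile of the windows tested (y axis, from 1 to 99) against the log2 change from ESC to NPC (x axis) for H3K27me3 and H3K4me3, in lncRNA windows that share reads with a coding window, lie 5 to 50 kb or over 50 kb from a coding start, and in coding windows that overlap no other. For H3K27me3 the curve of the distant lncRNA windows crosses the 50th percentile at -0.83 and that of the sharing windows at 0.57.

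SUZ12 fell at 212 of 1874 lncRNA windows (11.3%) and rose at 58, beside 13.1% falling and 2.97% rising over all windows. The falls lay mostly in windows shared with coding genes, 154 of 575 (26.8%), against 51 of 1229 lone lncRNA windows (4.15%) and 14.4% of lone coding windows. They were also found mostly at CG-rich and middle promoters, 21.4% and 16.3%, against 1.84% of the low group, beside 17.2%, 15.5% and 1.95% over all windows. Of the 212, 117 (55.2%) were above IgG in ESC, beside 45.0% of all windows that fell, whereas none of the 58 that rose was above IgG in either cell type. The rises over all members, 78, were 3 with DESeq2 and 309 with scaling by library totals. The falls, 241, were 76 with a minimum count of 30, under which fewer windows enter the fit.

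JARID2 fell at 30 of 1909 lncRNA windows and rose at 2, beside 0.75% and 0.0792% of all windows. The falls lay mostly in windows shared with coding genes, 24 of 573 (4.19%), against 6 of 1267 lone lncRNA windows (0.474%). MTF2 fell at 116 of 1797 and rose at 91, beside 8.89% and 3.28% of all windows, and none of the 91 was above IgG. Lone lncRNA windows leaned the other way, with 30 of 1163 falling in MTF2 (2.58%) and 74 rising (6.36%). Of the windows sharing reads with a coding gene, 84 of 566 fell (14.8%) and 11 rose (1.94%). Without NPC library 1, MTF2 fell at 9 and rose at 3 members, against 143 and 118 with all libraries, and without ESC library 1 at 16 and 7. Of 1735 lncRNA windows tested for MTF2 and SUZ12, 95 fell in both, which is 81.9% of the MTF2 falls and 44.8% of the SUZ12 falls, and none moved in opposite directions. Over all windows the shares were 73.2% and 48.8%, also with none in opposite directions. JARID2 falls over all members, 32, were 10 without ESC library 2 and 20 with DESeq2.

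H3K4me3 fell at 445 of 1595 lncRNA windows (27.9%) and rose at 280 (17.6%), beside 29.2% and 26.7% of all windows. Lone lncRNA windows fell at 267 of 957 (27.9%) and rose at 81 (8.46%), with a median log2 change of -0.37. That median was not stable: it was 0.029 without NPC library 2, -0.072 without ESC library 2, -0.086 with no filter and -0.94 with a minimum count of 30, and the falls were 149 without ESC library 1 and the rises 159 without NPC library 2. Divergent starts within 1 kb of a coding start rose at 107 of 275 (38.9%) and fell at 61 (22.2%). Scaling on windows of low signal moved the median of all windows from -0.02 to 0.25 and the falls over all members from 604 to 373. Under that scaling, the median of lone lncRNA windows was -0.10.

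A loss of H3K4me3 was paired with a gain of H3K27me3 at some lncRNA windows, at a lower share of the losses than in the whole table. Few of the windows that gained were called above IgG in NPC. Of 1504 lncRNA windows tested for both marks, 124 fell in H3K4me3 and rose in H3K27me3, which is 30.3% of the H3K4me3 falls and 45.1% of the H3K27me3 rises. Over all windows of the table those shares were 41.7% and 45.0%. Of 920 lone lncRNA windows tested for both marks, 50 made this pair. That is 20.2% of their H3K4me3 falls and 48.5% of their H3K27me3 rises. Another 58 of the lone windows, 23.5% of their H3K4me3 falls, fell in both marks. The reverse pair, H3K4me3 up and H3K27me3 down, was found at 58 of the 1504 lncRNA windows. That is 22.1% of H3K4me3 rises and 11.9% of H3K27me3 falls, beside 18.6% and 25.3% over all windows. Of the 276 lncRNA windows that rose in H3K27me3, 51 (18.5%) were above IgG in NPC, beside 15.1% of all windows that rose.

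2410017I17Rik had the largest rise in H3K27me3 of a lone lncRNA window under the naming rule, and it was called above IgG in NPC. It starts 15592 bp from Gm7030, in the window chr17:36142517-36147517. Its H3K27me3 level was 6.21 and 10.8 CPM in ESC and 212 and 302 CPM in NPC, beside IgG at 46.9 and 44.9 CPM, and the groups were far apart (log2 change 5.22 ± 0.85, adjusted p = 6.19e-08). H3K4me3 went the other way, from 111 and 115 CPM to 14.4 and 15.1 CPM (-2.93 ± 0.11, adjusted p = 3.18e-157). SUZ12 rose from 23.3 and 27.8 CPM to 64.4 and 71.3 CPM and MTF2 from 24.0 and 18.8 CPM to 47.8 and 77.4 CPM, neither of them above IgG in NPC. The H3K27me3 call did not pass when either ESC library was left out, with a log2 change of 4.85 or 5.49.

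Gm53, Nphs1os and Gm5089 exchanged the marks in the same way. Gm53, 19670 bp from Hoxb9, had H3K27me3 at 42.5 and 43.2 CPM in ESC and 584 and 957 CPM in NPC, and H3K4me3 at 145 and 154 CPM in ESC and 10.4 and 7.48 CPM in NPC. Nphs1os, on the strand opposite the kidney gene Nphs1, had H3K27me3 at 14.5 and 12.4 CPM in ESC and 239 and 285 CPM in NPC, and Gm5089, 14512 bp from Zic5, at 16.6 and 13.9 CPM and 243 and 349.7 CPM. In each of the 3 the ESC and NPC libraries did not overlap for either mark. Each of the 3 H3K27me3 calls was lost when either ESC library was left out, with log2 changes between 4.28 and 4.69.

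Counted by rank, without IgG or scaling, few lncRNA windows held both marks. Windows in the top 25% of all windows for both H3K4me3 and H3K27me3, in both libraries, were 20 of 2082 (0.961%) in ESC and 62 (2.98%) in NPC, with 10 in common, beside 0.956% and 2.97% of all windows. The lncRNA share is thus near that of the table. Most were windows shared with coding genes, 16 in ESC and 47 in NPC, while the lone windows numbered 3 and 10.

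Most windows of neural lncRNAs lost SUZ12. It fell at 19 of 25 and rose at none, with a median log2 change of -1.23. Over all windows 13.1% fell in SUZ12 and 2.97% rose. H3K4me3 rose at 16 and fell at 4 (median 0.52), beside 26.7% rising and 29.2% falling over all windows. H3K27me3 had 2 rises (1700020I14Rik and Tunar), 1 fall (Rmst) and no call at the other 22. Over all windows 22.9% rose and 23.5% fell in that mark. H3K27me3 was above IgG at 21 of the 25 (84.0%) in ESC and in NPC alike, beside 22.5% and 15.1% of all windows. H3K4me3 was above it at 3 (12.0%) in ESC and 11 (44.0%) in NPC, beside 36.0% and 38.9%. JARID2 fell at 7 (28.0%, beside 0.75% of all windows) and MTF2 at 6 (24.0%, beside 8.89%). Windows such as those of Foxd2os, Lhx1os, Pantr1, Ptf1aos and Six3os1 overlap that of a coding gene. Their counts hold reads of both, so a change there cannot be assigned to the lncRNA. With a minimum count of 30, SUZ12 fell at 12 of the 20 then tested, and its change turned to 0.10 at Dlx1as and 0.036 at Dlx6os1; without NPC library 1 it fell at 16. The list was drawn up with earlier results of these data known, so these counts describe its members. H3K4me3 fell at Dlx1as, Foxd2os, Ptf1aos and Tunar.

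Pantr1 starts 2320 bp from Pou3f3, a POU factor of the developing brain, and their windows overlap, so its counts hold reads of both. SUZ12 there was 526 and 499.8 CPM in ESC and 96.6 and 98.1 CPM in NPC, a clear gap between the groups (-2.65 ± 0.24, adjusted p = 6.07e-25). H3K4me3 went from 51.1 and 42.5 CPM to 187 and 174 CPM (1.89 ± 0.09). H3K27me3 was 157 and 125 CPM in ESC and 54.3 and 122 CPM in NPC, with the NPC libraries far apart and no call (adjusted p = 0.642).

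Gm5607 gave the same pattern in a window of its own, 9748 bp from Sox1, an early neural factor. SUZ12 was 541 and 461 CPM in ESC and 120.2 and 118 CPM in NPC (-2.33 ± 0.23, adjusted p = 7.71e-21). JARID2 was 171 CPM in both ESC libraries and 65.0 and 53.0 CPM in NPC (-1.53 ± 0.25, adjusted p = 5.18e-06), the largest JARID2 fall of a lone lncRNA window under the naming rule. H3K4me3 rose from 21.2 and 15.2 CPM to 84.9 and 87.2 CPM, and H3K27me3 was 344 and 321 CPM in ESC and 236 and 428 CPM in NPC, above IgG in both cell types. For SUZ12, JARID2 and H3K4me3 the ESC and NPC libraries did not overlap, whereas for H3K27me3 they did.

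2610307P16Rik lies 68260 bp from Sox4, its nearest coding start, in a window that overlaps no other (chr13:28882922-28887922). SUZ12 was 128 and 117 CPM in ESC and 60.1 and 51.3 CPM in NPC (-1.40 ± 0.25, adjusted p = 3.77e-07), and MTF2 was 178 and 138 CPM in ESC and 31.9 and 65.8 CPM in NPC (-1.95 ± 0.48, adjusted p = 0.00278). H3K4me3 rose from 15.2 and 11.9 CPM to 84.2 and 87.8 CPM (2.61 ± 0.12, adjusted p = 1.20e-107). H3K27me3 was 146 and 167 CPM in ESC and 109.7 and 98.1 CPM in NPC, lower in both NPC libraries but not past the test (-0.38 ± 0.60, adjusted p = 0.623) and above IgG in both cell types. The MTF2 call was lost without ESC library 1, without NPC library 1, and with a replicate block.

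Miat, a nuclear lncRNA of neurons and other tissues, and Sox2ot, whose gene spans that of the stem and neural factor Sox2, gained H3K4me3 without a SUZ12 call. At Miat H3K4me3 was 8.86 and 7.73 CPM in ESC and 52.7 and 57.7 CPM in NPC (2.71 ± 0.15, adjusted p = 4.44e-73), and SUZ12 was 66.5 and 70.3 CPM in ESC and 53.7 and 64.6 CPM in NPC (-0.46 ± 0.25, adjusted p = 0.236). H3K27me3 at Miat was 191 and 142 CPM in ESC and 66.5 and 106 CPM in NPC, with no call, and was above IgG in both cell types. At Sox2ot H3K4me3 was 4.43 and 5.25 CPM in ESC and 46.9 and 57.0 CPM in NPC (3.48 ± 0.17), while SUZ12 and H3K27me3 were near IgG. The start of Sox2ot is 89614 bp from that of Sox2, where H3K4me3 fell slightly (-0.30, adjusted p = 0.000473).

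Other neural lncRNAs lost SUZ12 with little or no change in H3K4me3. Six3os1, divergent from the forebrain and eye factor Six3 and overlapping its window, had SUZ12 at 599 and 563 CPM in ESC and 305 and 319 CPM in NPC (-1.15 ± 0.21, adjusted p = 1.99e-06). H3K4me3 was 36.7 and 29.5 CPM in ESC and 40.4 and 42.4 CPM in NPC (0.28 ± 0.11, adjusted p = 0.0241, lost with DESeq2), and H3K27me3 306 and 263 CPM in ESC and 473 and 936 CPM in NPC, with no call (adjusted p = 0.285). Otx2os1, 6415 bp from the anterior neural factor Otx2, had SUZ12 at 295 and 254 CPM in ESC and 159 and 143 CPM in NPC (-1.12 ± 0.22) and H3K4me3 at 12.3 and 11.0 CPM in ESC and 13.5 and 12.1 CPM in NPC (0.07 ± 0.22, adjusted p = 0.822).

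**Figure D4:**
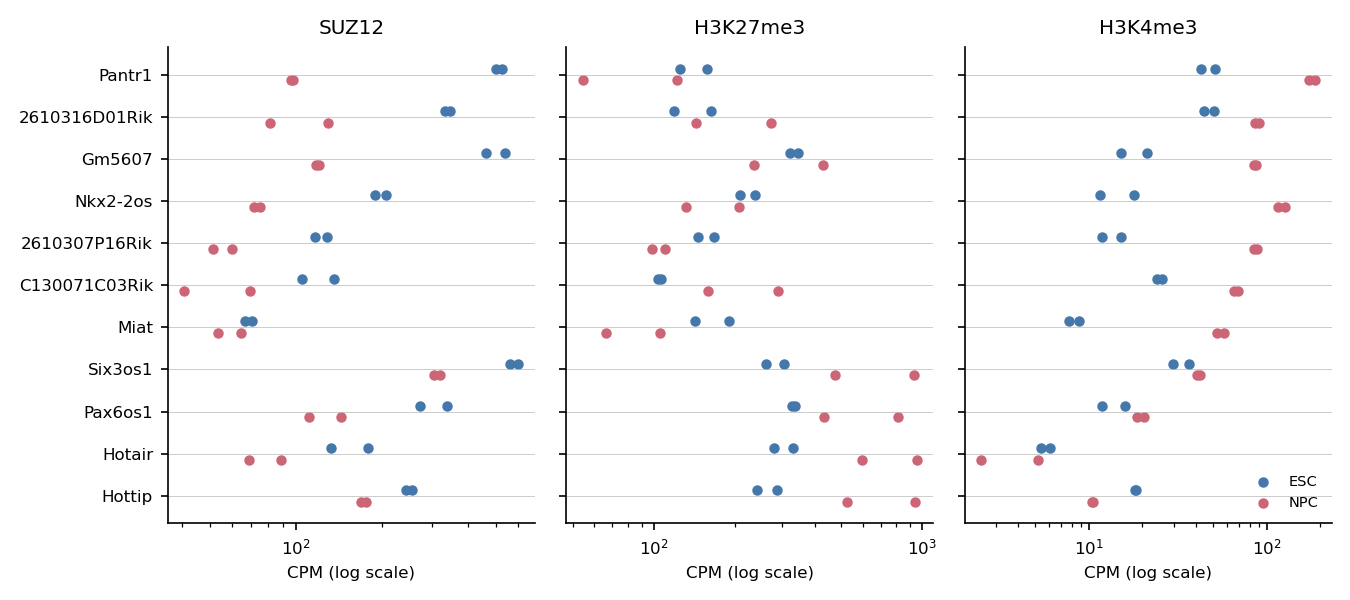
Points give the level of each library (x axis, CPM, log scale) in ESC and NPC for SUZ12, H3K27me3 and H3K4me3 at 9 neural lncRNA windows and at Hotair and Hottip (y axis). SUZ12 points of Pantr1 move left from 526 and 499.8 CPM to 96.6 and 98.1 CPM, H3K4me3 points of 2610307P16Rik move right from 15.2 and 11.9 CPM to 84.2 and 87.8 CPM, and the NPC libraries of H3K27me3 lie apart from each other at most windows.

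Hox cluster lncRNAs are transcribed between the homeobox genes that pattern the body axis. Their windows mostly lost SUZ12 as well, with no H3K27me3 fall called. The windows of Evx1os, Hoxa11os, Hoxb5os and Hoxd3os1 overlap those of Evx1, Hoxa11, Hoxb5 and Hoxd3. Counts there hold reads of both genes, so a change cannot be assigned to the lncRNA. SUZ12 fell at 9 of 11 (81.8%, beside 13.1% of all windows, median -0.77) and JARID2 at 5 (45.5%, beside 0.75%). H3K27me3 rose at Hotairm1 and Halr1 (18.2%, beside 22.9%) with no call at the other 9. It was above IgG at 9 in ESC and 10 in NPC (81.8% and 90.9%, beside 22.5% and 15.1%). H3K4me3 fell at 7 (63.6%, beside 29.2%) and rose at Hoxaas2, from 30.8 and 25.4 CPM to 130.2 and 133 CPM (2.18 ± 0.10). Without NPC library 1 the SUZ12 calls at Hottip, Hoxa11os, Hoxaas2, Hoxaas3 and Hoxd3os1 were lost, and without NPC library 2 SUZ12 fell at 6. With a minimum count of 30 it fell at 1 of the 10 then tested, and the change turned to 0.060 at Hottip, 0.10 at Hoxaas2, 0.089 at Hoxaas3 and 0.21 at Hoxd3os1.

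Hotair, transcribed from the HoxC cluster 6579 bp from Hoxc11, had SUZ12 at 179.6 and 133 CPM in ESC and 68.7 and 89.2 CPM in NPC (-1.27 ± 0.23, adjusted p = 1.21e-06). H3K27me3 was 329 and 279 CPM in ESC and 596 and 954 CPM in NPC; both NPC libraries were higher, but they lay so far apart that the change did not pass (1.64 ± 1.32, adjusted p = 0.301). H3K4me3 was 5.38 and 6.08 CPM in ESC and 5.21 and 2.49 CPM in NPC, under IgG in both. Among the 6 mesoderm and endoderm lncRNAs, SUZ12 fell at Fendrr, Foxl2os and Wt1os (50.0%, beside 13.1% of all windows). H3K4me3 fell at 4 (66.7%, beside 29.2%). The window of Foxl2os overlaps that of Foxl2. Fendrr, which shares a divergent start with the mesoderm factor Foxf1, had SUZ12 at 579 and 516 CPM in ESC and 217 and 225 CPM in NPC and H3K4me3 at 57.1 and 50.3 CPM in ESC and 59.1 and 55.1 CPM in NPC (0.03 ± 0.09).

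Transcripts named for pluripotency lost H3K4me3. Of the 12 Platr genes, pluripotency-associated transcripts, 11 fell (91.7%, beside 29.2% of all windows), with a median log2 change of -3.03. Platr5 had no call at 5.22 and 3.59 CPM in ESC and 2.76 and 2.02 CPM in NPC. H3K4me3 was above IgG at 6 of the 12 in ESC and 1 in NPC. Platr10, over 50 kb from any coding start, had 159 and 167 CPM in ESC and 8.27 and 7.60 CPM in NPC (-4.39 ± 0.12, adjusted p = 2.98e-284), so the groups were well apart. Lncenc1, a lncRNA of naive ESC, had 219.7 and 244 CPM in ESC and 11.9 and 11.3 CPM in NPC (-4.34 ± 0.11). These genes were named for their expression in ESC, so the direction was built into the list. H3K27me3 rose at 3 of the 8 Platr windows tested (37.5%, beside 22.9% of all windows), and none was above IgG in either cell type. At Platr10 the H3K27me3 level was 3.11 and 3.09 CPM in ESC and 26.6 and 6.37 CPM in NPC, beside IgG at 23.5 and 35.9 CPM.

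Hosts of small nucleolar RNAs, which guide ribosomal RNA modification, kept H3K4me3 well above IgG but at a lower level in NPC. H3K4me3 fell at 14 of the 16 tested (87.5%, beside 29.2% of all windows) and rose at none, with a median of -0.57. All 16 were above IgG in both cell types. Gas5 had 233 and 260.1 CPM in ESC and 161 and 194 CPM in NPC (-0.46 ± 0.08, adjusted p = 3.33e-08), and Snhg12 had 151 and 144 CPM in ESC and 66.8 and 74.2 CPM in NPC (-1.07 ± 0.08). Scaling on windows of low signal removed the calls at Epb41l4aos, Gas5, Snhg1, Snhg20 and Snhg3 and left that at Snhg12. H3K27me3 rose at 9 of the 16 tested (56.25%, beside 22.9% of all windows), and none was above IgG in NPC.

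The abundant nuclear lncRNAs Malat1 and Neat1 start near each other and differed. At Malat1, which collects in nuclear speckles, H3K4me3 was 259 and 273 CPM in ESC and 233 and 274 CPM in NPC, with no call (-0.07 ± 0.08, adjusted p = 0.479). At Neat1, the scaffold of paraspeckles, it was 147 in both ESC libraries and 39.2 and 43.6 CPM in NPC (-1.82 ± 0.09, adjusted p = 5.48e-89). Neat1 was also the largest SUZ12 rise of a lone lncRNA window under the naming rule, which asks for an average signal at or above the median, from 25.7 and 16.7 CPM to 70.8 and 53.5 CPM, but IgG stood at 46.9 and 53.9 CPM, SUZ12 was not above it in NPC, and the call was lost with DESeq2. Crnde, divergent from the developmental factor Irx5 and sharing its window, lost SUZ12 from 497 and 520.1 CPM to 94.4 and 116 CPM (-2.52 ± 0.24) and gained H3K4me3 from 103 and 98.0 CPM to 191 and 183 CPM.

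**Figure D5:**
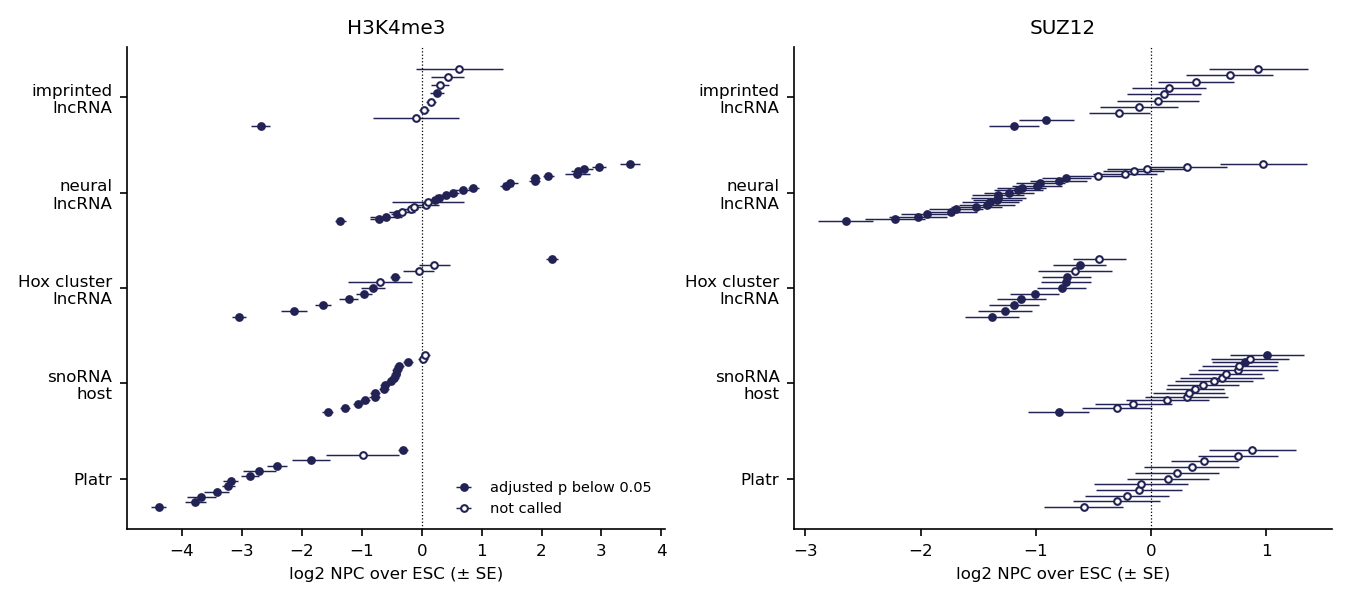
Points give the log2 change from ESC to NPC with its SE (x axis) of H3K4me3 and SUZ12 for each tested gene of the Platr, snoRNA host, Hox cluster, neural and imprinted lists, which are stacked along the y axis. Filled points have an adjusted p below 0.05. SUZ12 points of the neural list lie left of 0 at the 19 called genes, and H3K4me3 points of the Platr list reach -4.39.

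At the X inactivation centre, Jpx and Ftx, which act on Xist, both fell in H3K27me3 and SUZ12 and rose in H3K4me3. Jpx had H3K27me3 at 129 and 108 CPM in ESC and 17.7 and 20.4 CPM in NPC (-2.39 ± 0.42, adjusted p = 5.22e-07), SUZ12 at 35.0 and 35.2 CPM in ESC and 8.59 and 8.92 CPM in NPC (-2.23 ± 0.47, adjusted p = 3.80e-05, lost with DESeq2), and H3K4me3 at 3.95 and 6.35 CPM in ESC and 21.1 and 25.6 CPM in NPC (2.29 ± 0.23). Its ESC and NPC libraries did not overlap for any of the 3. Ftx had H3K27me3 at 89.1 and 55.6 CPM in ESC and 15.5 and 28.0 CPM in NPC (-1.43 ± 0.33, adjusted p = 0.000129, lost without ESC library 1) and SUZ12 at 52.5 and 42.6 CPM in ESC and 19.3 and 33.4 CPM in NPC (-1.14 ± 0.33, adjusted p = 0.00659, lost with DESeq2 and without ESC library 1 or NPC library 1). H3K4me3 at Ftx was 6.49 and 8.56 CPM in ESC and 26.0 and 26.6 CPM in NPC (1.84 ± 0.20). The IgG library of ESC held only 1 count at Jpx and at Tsix, and 4 at Ftx and at Xist. Ratios to IgG in ESC are poorly measured there. SUZ12 at Jpx in NPC lay near the floor of 3 counts, 6.44 and 6.69 CPM, and under IgG of NPC at 25.5 CPM. Tsix, the antisense partner of Xist, lost H3K4me3 from 24.0 and 21.5 CPM to 3.06 and 2.26 CPM (-3.21 ± 0.27), and Xist had 3.80 and 3.04 CPM in ESC and 2.45 and 1.07 CPM in NPC, with no call. Both cell types come from 1 line whose sex the labels do not give.

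Imprinted lncRNAs are read from 1 parental copy. Of 8 tested, H3K4me3 rose at Airn and fell at Zim3 (12.5% each, beside 26.7% and 29.2% of all windows). SUZ12 fell at 2 of 10 (20.0%, beside 13.1%) and H3K27me3 at 3 of 10 (30.0%, beside 23.5%), and neither rose at any. The window of Igf2os, where SUZ12 fell (log2 change -1.19), overlaps that of Igf2, so its counts hold reads of both. Kcnq1ot1, whose transcription silences neighbouring genes on the paternal copy, had H3K4me3 at 105 and 108 CPM in ESC and 102 and 115 CPM in NPC, above IgG in both, with no call (0.04 ± 0.08). Reads were not split by parental copy.

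Opposite-strand, antisense and overlapping transcripts are named for a coding partner, and 148 members had one in the table. They were recognised by symbol alone, without a check of strand. In 67 pairs the windows overlap, and there every pair with both called moved the same way. These windows hold some of the same reads, so that agreement was built in. In the 81 pairs whose windows do not overlap, both genes were called for H3K27me3 in 20, 19 of them in the same direction, and for H3K4me3 in 19, with 12 in the same and 7 in opposite directions. Those 7 include Srrm4os, at 26.6 and 21.5 CPM of H3K4me3 in ESC and 6.74 and 4.51 CPM in NPC (-2.26 ± 0.22), while the neural splicing factor gene Srrm4, 153096 bp away, rose by 1.75. They also include Ptprtos (-4.68 ± 0.23), 270335 bp from Ptprt (0.79), and, by the symbol rule, Sox2ot with Sox2, whose gene it spans. Srrm4os and Ptprtos were chosen from the 7 after their values were seen. How often other pairs of windows move the same way was not tested.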

How the data were processed

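The authors deposited a count table of 22 libraries, in which each whole number is the reads of 1 library in a window of 5000 bp around a RefSeq start site, left unscaled. Per the submitters' processing notes, mm10, Bowtie2 2.3.4.3 and Picard 2.19 were used, in roles that are not stated; how reads were counted and whether duplicates were removed is not given in the sources used here. Changes between NPC and ESC were fitted per antibody over all windows by the quasi-likelihood test of edgeR 4.0.16 in R 4.3.3, after TMM scaling and filterByExpr with a minimum count of 10; a call is an adjusted p (Benjamini-Hochberg, over all windows) below 0.05. Enrichment over IgG came from 1 fit of the 22 libraries, and a log2 fold of at least 1 was asked for. IgG, with 1 library per cell type, was assumed to vary like the other groups. Levels are CPM, counts per 1000000 counts of the library's windows. The scripts were tested on simulated data. Transcript types and sequences are from RefSeq; promoters were matched to windows within 100 bp.

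The genes named are those of fixed lists of known lncRNAs, and for each antibody the 5 lone windows that rose and fell most among those past the threshold, with libraries that do not overlap and average signal at or above the median. Members and lists were chosen with earlier results of these data known. Alternatives were DESeq2 1.42.0, other scalings and filters, a replicate block, single libraries left out, other IgG rules and non-overlapping windows. The same-numbered libraries did not deviate together (correlations from -0.21 to 0.01), so the numbers were not taken as pairs. For JARID2 the 2 NPC libraries agreed within sampling noise (chi-square over its degrees of freedom 1.004) and the ESC pair nearly so (1.019). All were kept apart as the labels list them, and summing the NPC pair changed no count by over 1.5 times. That chi-square ratio was largest for H3K27me3 in NPC (6.8). Next came H3K4me3 in NPC (2.18) and MTF2 in NPC (1.74) and in ESC (1.52).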

Additional observations from a re-analysis of the deposited data

How the results depend on the processing

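Counts are over all 2805 members. SUZ12, JARID2 and H3K27me3 falls, and H3K4me3 rises and falls, kept within 1.5 times under most alternatives. The rises of SUZ12, JARID2, MTF2 and H3K27me3, and the MTF2 falls, moved by more under many of them. The counts that moved further are as follows. With DESeq2, SUZ12 rises went from 78 to 3, JARID2 rises from 3 to 0 and falls from 32 to 20, MTF2 rises from 118 to 2, and H3K27me3 rises from 410 to 105 and falls from 853 to 407. Scaling by library totals gave 309 SUZ12, 312 MTF2 and 146 H3K27me3 rises. Scaling on windows of low signal gave 23 SUZ12, 30 MTF2 and 151 H3K27me3 rises, 245 MTF2 falls (143 otherwise) and 373 H3K4me3 falls (604 otherwise). A minimum count of 30 gave 76 SUZ12 falls (241 otherwise), 54 MTF2 rises and 34 falls, and 232 H3K27me3 rises and 288 falls. Windows overlapping no other, a smaller set by construction, gave 67 SUZ12 falls, 0 JARID2 rises and 6 falls, 51 MTF2 falls, 221 H3K27me3 rises, and 135 H3K4me3 rises (372 otherwise) and 383 falls.

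With the replicate block, MTF2 rises were 28 and falls 32, and JARID2 rises 1; the other counts moved by less than 1.5 times, to 69 and 245 for SUZ12, 24 JARID2 falls, 306 and 758 for H3K27me3 and 360 and 579 for H3K4me3. A crossed replicate block, added after seeing the data, gave 239 MTF2 falls. Leaving out single libraries gave SUZ12 rises of 15 to 43 (15 without ESC library 1), JARID2 rises of 0 to 1 and falls of 10 to 26, MTF2 rises of 3 to 88 and falls of 9 to 148, H3K27me3 rises of 85 to 431 and falls of 438 to 864, and H3K4me3 rises of 234 to 434 (234 without ESC library 2) and falls of 366 to 723 (366 without ESC library 1). The H3K27me3 rises were 85 without ESC library 1.

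Above IgG, a log2 fold of at least 2 gave 230 H3K27me3 windows in ESC (628 otherwise) and 201 in NPC (308), and 315 H3K4me3 windows in ESC and 286 in NPC. Scaling by library totals gave 271 and 200 for H3K27me3, 345 and 319 for H3K4me3, 30 and 32 for SUZ12 and MTF2 in NPC, and 5 for JARID2 in ESC. IgG of both cell types gave 223 for SUZ12 in ESC, 6 for SUZ12 and 17 for MTF2 in NPC. Non-overlapping windows gave 42 for SUZ12 and 57 for MTF2 in ESC, 320 and 118 for H3K27me3, and 231 and 217 for H3K4me3. Leaving out a library gave 54 to 123 for SUZ12 and 74 to 209 for MTF2 in ESC, and 0 to 5 for MTF2 in NPC. Both marks by rank fell from 25 to 0 in ESC and from 74 to 14 in NPC with the top 10% in place of the top 25%, and to 5 and 19 in non-overlapping windows. Of the values of single named genes, 1919 kept their direction and side of the threshold, 384 lost their call and 7 turned sign, all for SUZ12 with a minimum count of 30: Dleu2 0.21, Dlx1as 0.10, Dlx6os1 0.036, Hottip 0.060, Hoxaas2 0.10, Hoxaas3 0.089 and Hoxd3os1 0.21. The cause was not tested.

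Low IgG depth limits the calls over IgG for every antibody: the median lncRNA window had 12 IgG counts in ESC and 27 in NPC. Of the 2082 lncRNA windows, the fewest entered the test between cell types for H3K4me3 (1595). MTF2 had 1797, SUZ12 1874, JARID2 1909 and H3K27me3 1931. With 2 libraries a group, a missed threshold does not show that levels were equal. No count tells a lncRNA start from a coding start in a shared window.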

Other observations

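The share of all window counts that fell in lone lncRNA windows gives the change in H3K27me3 without a model. It was 5.88% and 5.94% in the ESC libraries and 4.44% and 3.73% in the NPC libraries. For H3K4me3 it was 1.62% and 1.59% in ESC and 1.36% and 1.20% in NPC, and for SUZ12 3.97% and 4.16% in ESC and 4.93% and 5.08% in NPC. In each of these cases the ESC and NPC libraries did not overlap, and the exact two-sided permutation p was 0.333, the smallest that 2 libraries against 2 can give. Over all 2082 lncRNA windows the shares did overlap for H3K27me3, at 9.60% and 9.59% in ESC and 8.998% and 9.64% in NPC, and for SUZ12, at 8.61% and 8.64% in ESC and 8.43% and 8.65% in NPC (exact permutation p = 1.0 for both).

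The spread of H3K27me3 levels over lone lncRNA windows narrowed, as it did over all windows. The middle 50% of these windows lay between 15.5 and 54.8 CPM in ESC, around a median of 31.5 CPM, and between 14.8 and 23.6 CPM in NPC, around a median of 18.6 CPM. Over all windows the middle 50% lay between 9.81 and 51.9 CPM in ESC and between 15.6 and 29.2 CPM in NPC. For coding windows overlapping no other the bounds were 10.8 and 57.3 CPM in ESC and 15.3 and 31.0 CPM in NPC. The lncRNA windows sharing reads with a coding gene had medians of 25.8 CPM in ESC and 23.6 CPM in NPC.

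Mirc35hg, a microRNA host gene that the rule keeps by its symbol, had the marks exchanged in a window that overlaps another, and was picked out after its values were seen. H3K27me3 was 6.21 and 16.99 CPM in ESC and 466 and 736 CPM in NPC (log2 change 6.05 ± 1.30, edgeR adjusted p = 4.46e-05). H3K4me3 was 243 and 250.5 CPM in ESC and 34.6 and 37.6 CPM in NPC (-2.77 ± 0.09), and SUZ12 rose from 43.1 and 48.1 CPM to 189 and 227 CPM (1.94 ± 0.24).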
